A study of Mus musculus with 36 samples.

Results

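The mouse metallothionein genes Mt1, Mt2 and Mt3, 3 of the 55536 genes in the count files, were followed across 36 kidney RNA-seq libraries. They were matched by their gene identifiers in the count file of each library. The libraries fall into 6 groups of 6: kidneys of ob mice given CdCl2 at 0, 0.5 or 2 mg/kg, and kidneys of b6j mice given the same doses. Here ob stands for obese ob/ob mice, which carry a mutated leptin gene, and b6j for normal C57BL/6 mice. Every sample is labelled with the strain C57BL/6, so the 2 genotypes share a background. Age, sex, route and length of treatment are not in the labels. The study asked how kidneys of the 2 genotypes respond to cadmium, and the design lets each dose be set against untreated kidneys and ob against b6j at each dose. The labels number the replicates of a group and do not say that each is a separate animal, so p-values measure the spread between these libraries.

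Metallothioneins are small cytosolic proteins very rich in cysteine, and the cysteine thiols hold zinc, copper and cadmium ions. In most tissues the Mt1 and Mt2 genes are switched on by the zinc-sensing transcription factor MTF1, which binds metal response elements in their promoters, and also by glucocorticoids and by STAT3. In the kidney, cadmium bound to metallothionein is filtered, taken up by proximal tubule cells and stored there. Mt3 is known mainly from brain.

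The coding sequences are shown because the 3 transcripts are close relatives, and the counts of each depend on reads that can be told from those of the others. Capitals mark cysteine codons. The sequences are from GENCODE M21 for GRCm38, plus strand of chromosome 8, from the start codon to the stop codon of the transcripts Mt1-201, Mt2-201 and Mt3-201.
Mt1 coding: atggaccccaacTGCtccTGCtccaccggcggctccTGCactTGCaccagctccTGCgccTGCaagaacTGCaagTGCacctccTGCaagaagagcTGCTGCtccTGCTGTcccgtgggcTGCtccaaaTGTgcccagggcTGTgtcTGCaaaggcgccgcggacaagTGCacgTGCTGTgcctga
Mt2 coding: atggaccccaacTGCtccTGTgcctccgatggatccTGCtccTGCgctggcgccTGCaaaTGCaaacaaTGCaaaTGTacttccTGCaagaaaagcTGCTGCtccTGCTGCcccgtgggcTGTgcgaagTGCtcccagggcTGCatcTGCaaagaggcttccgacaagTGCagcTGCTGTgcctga
Mt3 coding: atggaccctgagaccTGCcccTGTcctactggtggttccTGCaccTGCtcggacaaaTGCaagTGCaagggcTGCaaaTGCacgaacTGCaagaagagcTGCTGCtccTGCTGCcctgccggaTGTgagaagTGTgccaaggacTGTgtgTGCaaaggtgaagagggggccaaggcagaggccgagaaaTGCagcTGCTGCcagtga

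Mt1 (ENSMUSG00000031765) lies at chr8:94179082-94180327, Mt2 (ENSMUSG00000031762) at chr8:94172664-94173568 and Mt3 (ENSMUSG00000031760) at chr8:94152607-94154146, all on the plus strand and all protein coding. The Mt1 and Mt2 coding sequences have 61 amino acid codons each and that of Mt3 has 68. Each of the 3 holds 20 cysteine codons, which is 32.8% of codons in Mt1 and Mt2 and 29.4% in Mt3, and each holds 7 runs of cysteine, any residue, cysteine. Mt1 and Mt2 share 148 of 186 aligned coding bases (79.6%), Mt1 and Mt3 135 of 186 (72.6%) and Mt2 and Mt3 140 of 186 (75.3%). No run of 50 bases of the Mt1 or the Mt3 transcript occurs in a transcript of another gene, so reads of that length or longer from these transcripts have 1 gene of origin.

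Mt2 was different in this respect, because another gene covers most of its exons. Gm45774 (ENSMUSG00000110588), annotated as an antisense RNA, is a single exon of 2665 bases at chr8:94170748-94173412 on the minus strand. Of the 588 exon bases of Mt2, 432 (73.5%) also belong to that exon and 156 do not. The counting ignored strand, and by its default settings a read that touches exons of both genes was given to neither. The Mt2 count therefore comes from reads that lie in the unshared end of its last exon. Reads that lie wholly in an intron of Mt2 fall in the exon of Gm45774 and were counted for it, whichever strand they came from, so the RNAs of the 2 genes cannot be told apart there. For this reason the level of Mt2 is not compared with that of Mt1 or Mt3 here, and its values, the ratio to Mt1 reads included, are used for differences between groups.

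**Figure D1:**
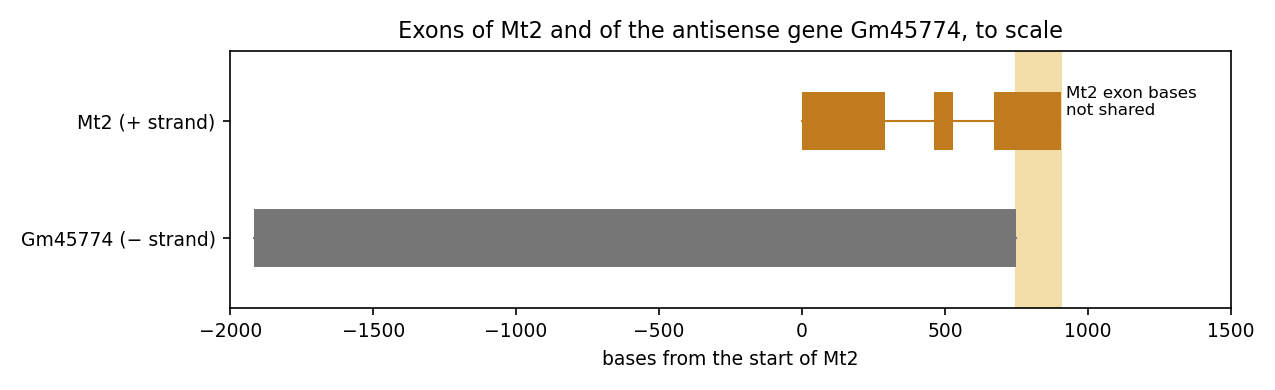
Exons of Mt2 (plus strand, 3 boxes joined by introns) and of the antisense gene Gm45774 (minus strand, 1 box), with position in bases from the start of Mt2 on the horizontal axis. The shaded end of the last Mt2 exon, 156 of the 588 exon bases, is what Gm45774 does not cover.

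The bases upstream of each gene are shown because MTF1 acts through metal response elements, whose core was searched as TGCACNC or TGCGCNC on both strands. Capitals mark matches to these letters, a match on the minus strand being printed as its plus-strand complement. The sequences are RefSeq's for GRCm38.p6, plus strand: chr8:94178839-94179081 for Mt1, chr8:94172368-94172617 for Mt2 and chr8:94152357-94152606 for Mt3.
Mt1 upstream: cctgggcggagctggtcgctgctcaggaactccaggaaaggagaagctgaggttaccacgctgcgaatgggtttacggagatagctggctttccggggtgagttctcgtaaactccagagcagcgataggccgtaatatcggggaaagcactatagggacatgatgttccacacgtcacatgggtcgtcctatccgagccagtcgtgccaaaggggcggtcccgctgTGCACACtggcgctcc
Mt2 upstream: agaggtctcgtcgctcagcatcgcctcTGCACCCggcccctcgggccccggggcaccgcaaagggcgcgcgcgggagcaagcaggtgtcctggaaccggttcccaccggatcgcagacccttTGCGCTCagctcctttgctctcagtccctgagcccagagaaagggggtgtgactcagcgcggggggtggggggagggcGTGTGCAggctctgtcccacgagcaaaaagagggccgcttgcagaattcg
Mt3 upstream: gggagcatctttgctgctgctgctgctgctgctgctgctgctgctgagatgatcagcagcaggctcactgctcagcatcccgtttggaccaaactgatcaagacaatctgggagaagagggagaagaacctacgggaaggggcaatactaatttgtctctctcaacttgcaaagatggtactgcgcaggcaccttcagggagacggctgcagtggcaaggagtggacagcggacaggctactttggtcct

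In a window from 250 bases before to 50 bases after the RefSeq start, the core was found 3 times for Mt1, 4 times for Mt2 and 1 time for Mt3. Matches outside this window were not counted, and whether the annotated start is the one used in kidney was not tested. The Mt1 matches begin 23 bases before the start, printed above, and at bases 3 and 21 after it. Those of Mt2 begin 223, 128 and 50 bases before the start, the last on the minus strand, and at base 5 after it, also on the minus strand. The match of Mt3 begins at base 28 after its start, so its printed stretch has none. Of 32851 RefSeq windows of 300 bases, 25.7% held at least 1 match, 1.97% at least 3 and 0.517% at least 4. Among other metal-handling genes, the window of the zinc exporter gene Slc30a1 held 2 matches and both windows of the zinc importer gene Slc39a10 held 0. The antioxidant response element, searched as TGACNNNGC on both strands, was found 1 time for Mt2 and 1 time for Slc30a1, in no case overlapping a metal response match, and 12.4% of windows hold at least 1. Windows of Hmox1 and Gclc were not used here.

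The libraries held 26783936 to 37244058 reads assigned to genes, and 18180 genes passed the expression filter and were tested. All 3 members passed. A count of 3 reads, taken as the floor of detection, corresponded to 0.081 to 0.112 CPM, the unit of level used here, which is taken over the assigned reads after scaling between libraries. Proximal tubule markers marked the tissue as labelled: all 8 had a median of at least 1 CPM in every group. Their summed level had a median of 23083, 24914 and 12469 CPM in ob kidneys at 0, 0.5 and 2 mg/kg and 44817, 38832 and 25904 CPM in b6j kidneys at the same doses. Such a sum is weighted to the most abundant markers. Between untreated genotypes edgeR called 2 of the 8, Kap and Slc22a6, lower in ob kidneys, and the median log2 change was -0.2. Without ob at 2 mg/kg replicate 5, 4 were lower and 1 was higher. In that comparison 15.5% of tested genes, 2822, were called in either direction with all libraries, and 4781 without that library. The sum of 4 tubular injury markers had medians of 919, 1033 and 2215 CPM in ob kidneys and 455, 723 and 1497 CPM in b6j kidneys in the same order of dose. By edgeR none of the 8 proximal tubule markers was called at 0.5 mg/kg in either genotype, nor at an unadjusted p below 0.05, while at 2 mg/kg 4 were lower in ob kidneys and 2 in b6j kidneys (5 and 6 without ob at 2 mg/kg replicate 5). Of the injury markers, 1 of 4 was higher in ob kidneys at 0.5 mg/kg and 0 in b6j kidneys (1 without that library), and at 2 mg/kg 4 in ob and 3 in b6j kidneys (4 without it). In ob kidneys at 2 mg/kg all 3 podocyte, all 3 endothelial and all 3 collecting duct markers and 3 of 4 loop and distal tubule markers were also lower (3, 1, 2 and 2 without it), where in b6j kidneys 0, 0, 0 and 1 were (0, 1, 1 and 2 without it). Of 5 immune markers, 2 were higher at 2 mg/kg in each genotype (3 without it, with 1 lower in b6j kidneys). At the low dose 1 of the 3 podocyte markers was lower in ob kidneys (3 without it). Before cadmium all 3 podocyte and 2 of 3 endothelial markers were higher in ob than in b6j kidneys (3 and 3 without it). At 2 mg/kg none of these was called between genotypes (1 podocyte marker higher in ob without it). Of all tested genes, 3.55% rose and 0.737% fell in ob kidneys at 0.5 mg/kg, and 20.4% and 18% at 2 mg/kg. In b6j kidneys 0.297% rose and 0.0275% fell at 0.5 mg/kg, and 12.3% and 11.4% at 2 mg/kg. These shares are with all libraries. Without ob at 2 mg/kg replicate 5, genes called in either direction over the whole table also increased. At 0.5 mg/kg they went from 779 to 1780 in ob and from 59 to 157 in b6j kidneys. At 2 mg/kg they went from 6976 to 6989 in ob and from 4305 to 6388 in b6j kidneys. The part of these markers in the metallothionein results was not tested. That library, ob at 2 mg/kg replicate 5, stood apart, with 1255 CPM of proximal tubule markers, the lowest of its group, and 13492 CPM of injury markers, the highest. Of 4 neural markers, relevant to Mt3, the summed median lay between 0.722 and 1.65 CPM in every group. Of 4 adrenal markers, the summed median was at most 0.029 CPM in every group, with a highest value of 14.7 CPM in 1 b6j library at 2 mg/kg. Summed medians of 4 fat markers were 9.51, 4.94 and 12.2 CPM in ob kidneys at 0, 0.5 and 2 mg/kg. In b6j kidneys they were 1.86, 7.86 and 21.8 CPM, and single libraries of all groups ran from 0 to 144 CPM. Against untreated kidneys only Cfd was called, higher in b6j kidneys at 2 mg/kg. The part of fat in the metallothionein results was not tested.

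Mt1, one of the 2 broadly expressed metal-binding isoforms, was far above Mt3 per length in every group, and it rose at both doses of cadmium in both genotypes. In ob kidneys it measured 91.1, 106 and 150 CPM (lowest, median, highest of 6) at 0 mg/kg, 2026, 2928 and 3205 CPM at 0.5 mg/kg and 3942, 4312 and 5414 CPM at 2 mg/kg. In b6j kidneys it measured 94.3, 113 and 141 CPM at 0 mg/kg, 1150, 1329 and 1823 CPM at 0.5 mg/kg and 2483, 2889 and 3873 CPM at 2 mg/kg. Within each genotype no library of a higher dose overlapped one of a lower dose. Kidney RNA is a mixture of cell types, so more transcript per cell and more cells of a type that make it cannot be told apart.

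At 0.5 mg/kg Mt1 averaged 2823 ± 408 CPM in treated ob kidneys and 111 ± 21.2 CPM in untreated ob kidneys (SD, n = 6 each). The log2 change of 4.67 ± 0.15 (SE; 25.4-fold) had an adjusted p of 1.91e-22 by the quasi-likelihood test of edgeR. In ob kidneys at 2 mg/kg Mt1 averaged 4424 ± 518 CPM in treated libraries, a log2 change of 5.31 ± 0.16 over the same controls (39.8-fold, adjusted p = 6.77e-24). In b6j kidneys the mean was 1369 ± 253 CPM at 0.5 mg/kg against 116 ± 17.3 CPM in controls, a log2 change of 3.57 ± 0.15 (11.8-fold, adjusted p = 2.63e-19). It was 3073 ± 582 CPM in b6j kidneys at 2 mg/kg, a log2 change of 4.73 ± 0.15 over controls (26.6-fold, adjusted p = 1.32e-22). The transcript took up 0.0117%, 0.276% and 0.464% of all assigned reads in ob kidneys at 0, 0.5 and 2 mg/kg, and 0.011%, 0.13% and 0.315% in b6j kidneys. Each dose group of a genotype was compared with the same untreated libraries.

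**Figure D2:**
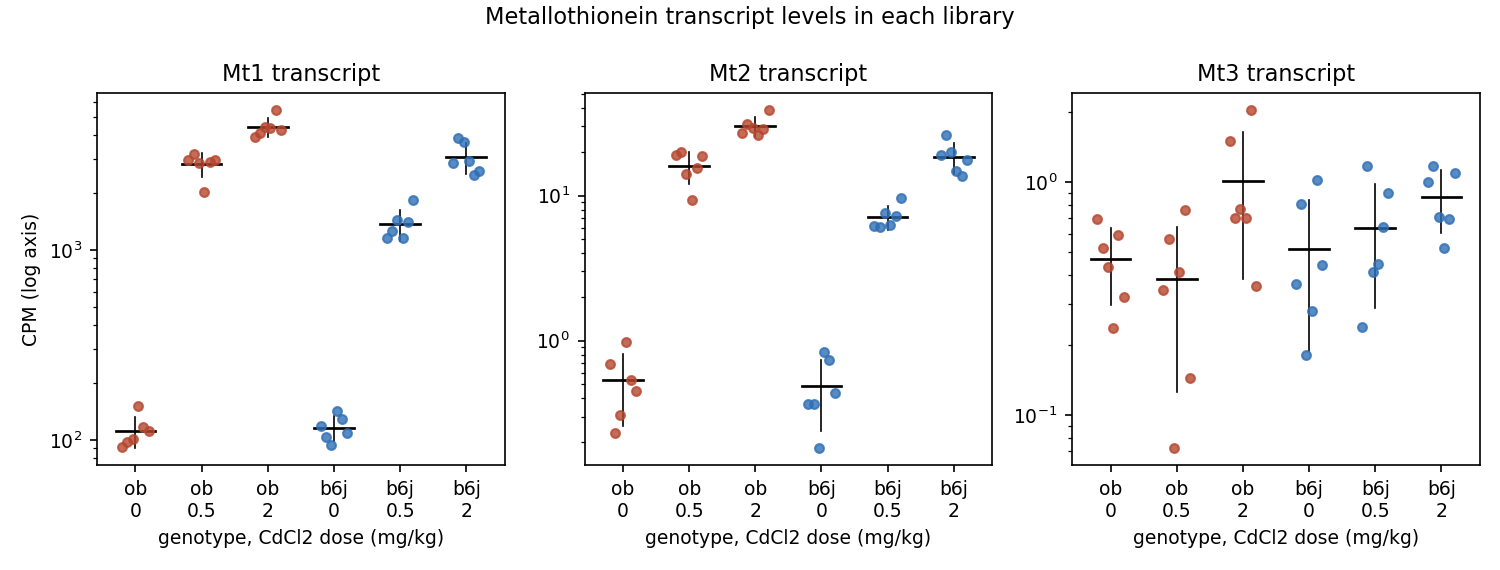
Mt1, Mt2 and Mt3 transcript levels in CPM (log axis, a separate scale for each gene) in the 6 libraries of each group, by genotype and CdCl2 dose in mg/kg; points are libraries, horizontal lines are group means and vertical lines are SD. Mt1 and Mt2 climb with dose in both genotypes, while the Mt3 points of all 6 groups overlap.

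Mt2, the other inducible isoform, rose in the same 4 comparisons, and its untreated counts were close to the floor. In ob kidneys it measured 0.232, 0.492 and 0.977 CPM (lowest, median, highest) at 0 mg/kg, 9.27, 17.1 and 19.8 CPM at 0.5 mg/kg and 26, 28.9 and 38.6 CPM at 2 mg/kg. In b6j kidneys it measured 0.181, 0.404 and 0.839 CPM at 0 mg/kg, 6.08, 6.74 and 9.62 CPM at 0.5 mg/kg and 13.6, 18.2 and 26.1 CPM at 2 mg/kg. Each untreated library held 6 to 33 reads of it, whereas each treated library held at least 177. No library of a higher dose overlapped one of a lower dose within a genotype.

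The log2 change of Mt2 in ob kidneys was 4.90 ± 0.26 at 0.5 mg/kg (29.9-fold, adjusted p = 4.48e-16) and 5.81 ± 0.27 at 2 mg/kg (55.9-fold, adjusted p = 3.56e-18). In b6j kidneys it was 3.85 ± 0.27 at 0.5 mg/kg (14.4-fold, adjusted p = 2.38e-12) and 5.21 ± 0.27 at 2 mg/kg (37.1-fold, adjusted p = 5.88e-17). Its standard errors were larger than those of Mt1, and its untreated counts were lower.

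Mt3, which binds the same metals and is known for brain, was present at 2 to 65 reads per library. In ob kidneys it measured 0.237, 0.477 and 0.696 CPM (lowest, median, highest) at 0 mg/kg, 0.0721, 0.378 and 0.758 CPM at 0.5 mg/kg and 0.358, 0.733 and 2.03 CPM at 2 mg/kg. In b6j kidneys it measured 0.181, 0.401 and 1.02 CPM at 0 mg/kg, 0.239, 0.544 and 1.17 CPM at 0.5 mg/kg and 0.522, 0.853 and 1.17 CPM at 2 mg/kg. All 6 groups overlapped. Per kilobase of exon, Mt3 averaged 0.438, 0.36 and 0.946 CPM in ob kidneys at 0, 0.5 and 2 mg/kg, where Mt1 averaged 89.3, 2266 and 3550 CPM per kilobase.

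The change of Mt3 passed the threshold in ob kidneys at 2 mg/kg, where it averaged 1.01 ± 0.625 CPM against 0.467 ± 0.171 CPM in controls (SD, n = 6 each). The log2 change of 1.11 ± 0.45 had an adjusted p of 0.0497, and 5 of the 6 treated libraries lay above every control. Without ob at 2 mg/kg replicate 5, the library that stood apart, the log2 change was 0.79 and the adjusted p 0.173, and leaving out any of 22 of the 36 libraries ended the call. In b6j kidneys at 2 mg/kg the log2 change was 0.74 ± 0.45 (adjusted p = 0.255). At 0.5 mg/kg it was -0.27 ± 0.47 in ob kidneys (adjusted p = 0.869) and 0.28 ± 0.45 in b6j kidneys (adjusted p = 1).

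These counts of called members stand beside different backgrounds. In ob kidneys at 0.5 mg/kg 2 of the 3 members rose while 3.55% of all tested genes did, and in b6j kidneys at 0.5 mg/kg 2 of 3 rose while 0.297% did. In ob kidneys at 2 mg/kg all 3 rose while 20.4% of tested genes did, and in b6j kidneys at 2 mg/kg 2 of 3 rose while 12.3% did. The ob count at 2 mg/kg includes Mt3, whose call was lost without ob at 2 mg/kg replicate 5 (edgeR adjusted p = 0.173). None of the 3 fell in any comparison. The median log2 change of all tested genes was between -0.01 and 0.017 in these 4 comparisons. Without ob at 2 mg/kg replicate 5, 1780 genes were called in either direction in ob kidneys at 0.5 mg/kg in place of 779 (4.28% of tested genes), and 157 in b6j kidneys at 0.5 mg/kg in place of 59 (0.325%). In the same comparisons Mt1 then had log2 changes of 4.65 and 3.56, and Mt2 of 4.89 and 3.84.

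Between the doses, Mt1 and Mt2 went on rising in both genotypes. In ob kidneys the log2 change at 2 over 0.5 mg/kg was 0.65 ± 0.13 for Mt1 (adjusted p = 0.000381) and 0.90 ± 0.20 for Mt2 (adjusted p = 0.00107). In b6j kidneys it was 1.17 ± 0.13 for Mt1 (adjusted p = 5.82e-08) and 1.37 ± 0.21 for Mt2 (adjusted p = 1.08e-05). Mt3 passed the threshold in ob kidneys, at 1.38 ± 0.46 (adjusted p = 0.0218), with 3 of 6 libraries at 2 mg/kg above every library at 0.5 mg/kg. That call was lost without ob at 2 mg/kg replicate 5 (1.07, adjusted p = 0.0809) and without any of 3 other libraries, ob at 0.5 mg/kg replicates 3 (1.17) and 6 (1.21) and ob at 2 mg/kg replicate 1 (1.23). In b6j kidneys the Mt3 value was 0.45 ± 0.44 (adjusted p = 0.544). So 3 of 3 members rose between doses in ob kidneys, where 15.2% of tested genes did, and 2 of 3 in b6j kidneys, where 8.78% did. The difference between genotypes in this step was -0.52 ± 0.19 for Mt1 (adjusted p = 0.384), -0.47 ± 0.29 for Mt2 (adjusted p = 0.63) and 0.93 ± 0.64 for Mt3 (adjusted p = 0.661), and 0 of 3 members passed by edgeR, DESeq2 or limma-voom, with 0.281% of tested genes called in either direction by edgeR. At an unadjusted p below 0.05 the count was 1 of 3, Mt1.

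Before cadmium no member passed the test between genotypes. Untreated ob kidneys averaged 111 ± 21.2 CPM of Mt1 and untreated b6j kidneys 116 ± 17.3 CPM, a log2 change of -0.06 ± 0.13 (adjusted p = 0.837) that was 0.08 when libraries were scaled by their size alone. For Mt2 the log2 change was 0.11 ± 0.32 (adjusted p = 0.868) and for Mt3 -0.15 ± 0.46 (adjusted p = 0.881). In this comparison 15.5% of tested genes were called in either direction, and 0 of the 3 members by edgeR, by DESeq2, by limma-voom or at an unadjusted p below 0.05.

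After cadmium, Mt1 and Mt2 were higher in ob than in b6j kidneys at both doses. At 0.5 mg/kg the 6 ob libraries had 2026 to 3205 CPM of Mt1, all above the 6 b6j libraries with 1150 to 1823 CPM. The log2 change of 1.04 ± 0.13 (2.06-fold) had an adjusted p of 7.30e-07. Mt2 differed by 1.17 ± 0.21 (2.25-fold, adjusted p = 0.00018), with 5 of 6 ob libraries above every b6j library. At 2 mg/kg the 6 ob libraries had 3942 to 5414 CPM of Mt1, all above the b6j range of 2483 to 3873 CPM, and the log2 change was 0.53 ± 0.13 (1.44-fold, adjusted p = 0.00535). Mt2 differed at this dose by 0.70 ± 0.20 (1.63-fold, adjusted p = 0.0146), again with 5 of 6 ob libraries above every b6j library. Mt3 had log2 changes of -0.70 ± 0.46 at 0.5 mg/kg (adjusted p = 0.415) and 0.23 ± 0.44 at 2 mg/kg (adjusted p = 0.776), the second of which was -0.09 without ob at 2 mg/kg replicate 5. So 2 of 3 members were higher in ob kidneys at each dose, where 4.58% of tested genes were at 0.5 mg/kg and 7.9% at 2 mg/kg. In either direction 1753 genes were called between genotypes at 0.5 mg/kg, and 3522 without ob at 2 mg/kg replicate 5, and at 2 mg/kg 2987 genes, and 461 with only the compared groups in the fit. With only the 2 compared groups in the fit, the Mt1 difference at 2 mg/kg kept its size, 0.53, and had an adjusted p of 0.0546.

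The test of whether the response itself differed between genotypes was passed by Mt1 at the low dose. The Mt1 response at 0.5 mg/kg was larger in ob than in b6j kidneys by 1.10 ± 0.19 on the log2 scale (2.14-fold, adjusted p = 0.00123), while 0.369% of tested genes were called higher in that test. Left-out libraries moved this value between 1.03 and 1.20, and none ended the call. The Mt1 difference in response at 2 mg/kg was 0.58 ± 0.19 (adjusted p = 0.0948). This passed the threshold with DESeq2 (0.61, adjusted p = 0.0364), with limma-voom (0.57, adjusted p = 0.035), without ob control replicate 4 (0.70, adjusted p = 0.0379) and without b6j at 2 mg/kg replicate 2 (0.67, adjusted p = 0.0493). Mt2 gave differences in response of about the same size with larger errors, 1.06 ± 0.38 at 0.5 mg/kg (adjusted p = 0.359) and 0.59 ± 0.38 at 2 mg/kg (adjusted p = 0.439). Mt3 gave -0.56 ± 0.65 (adjusted p = 0.925) and 0.37 ± 0.63 (adjusted p = 0.808). None of the 3 members passed at 2 mg/kg by edgeR, with 1.06% of tested genes called higher, while Mt1 alone was under an unadjusted p of 0.05. The whole-table count at 0.5 mg/kg was 254 genes in either direction without ob at 2 mg/kg replicate 5 and 70 with it (0.385% of tested genes), and at 2 mg/kg 758 without it and 376 with it (2.07%). Without that library the Mt1 values were 1.09 (adjusted p = 0.000305) and 0.53 (adjusted p = 0.0893).

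**Figure D3:**
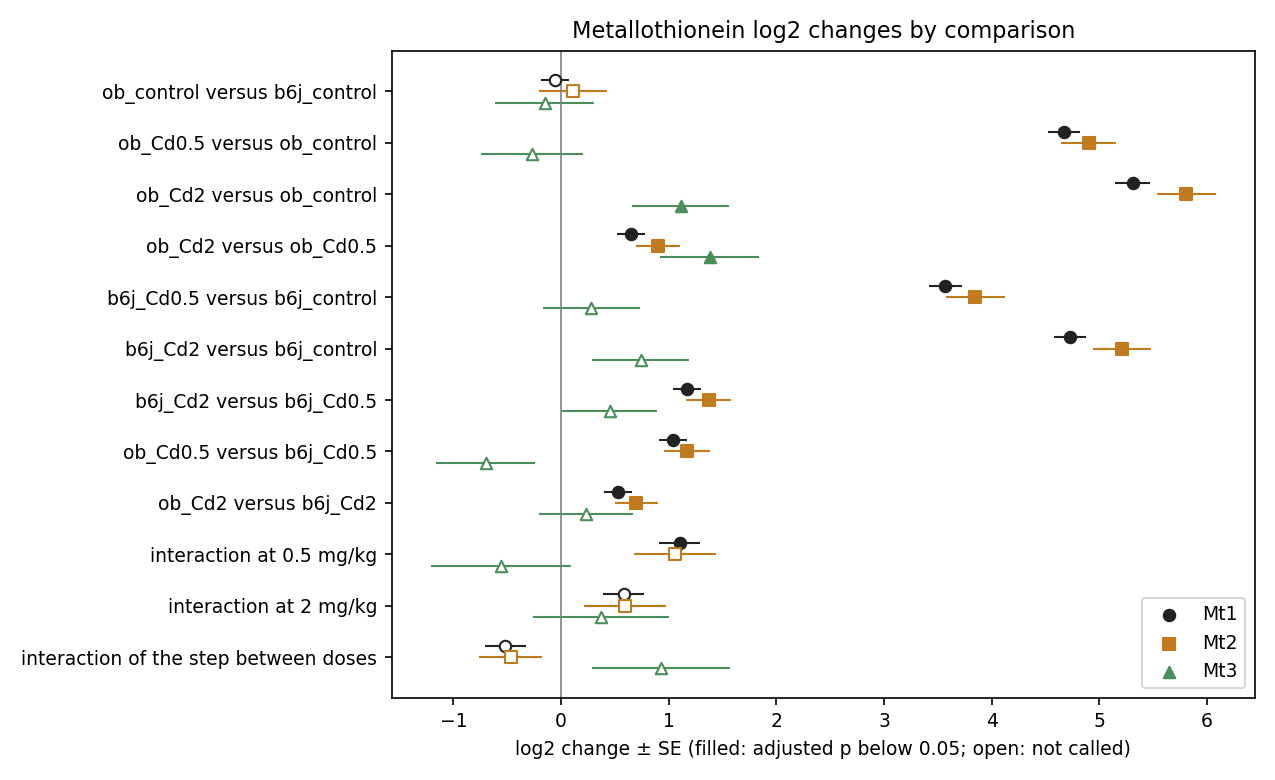
Log2 changes with SE of Mt1, Mt2 and Mt3 in the 12 comparisons, first group over second, with interactions as ob response minus b6j response; filled symbols had an adjusted p below 0.05. Mt1 and Mt2 lie side by side in every row, and the only filled interaction is that of Mt1 at 0.5 mg/kg, at 1.10.

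Ordered by their group means, Mt1 and Mt2 had the same ranks among treated groups. For Mt1 the order from high to low was ob at 2 mg/kg, b6j at 2 mg/kg, ob at 0.5 mg/kg, b6j at 0.5 mg/kg, b6j untreated and ob untreated. Exact two-sided permutation tests over libraries, adjusted over 15 neighbouring pairs, separated ob from b6j at 2 mg/kg (mean log2 difference 0.54, adjusted p = 0.00812), ob from b6j at 0.5 mg/kg (1.05, adjusted p = 0.00812) and b6j at 0.5 mg/kg from untreated b6j (3.56, adjusted p = 0.00812). The neighbours b6j at 2 mg/kg and ob at 0.5 mg/kg did not differ beyond their spread (0.12, adjusted p = 0.669 by the exact permutation test), nor did the untreated groups (0.06, adjusted p = 0.82). Mt2 also separated ob from b6j, with mean log2 differences of 0.72 and 1.13 at 2 and 0.5 mg/kg (exact permutation adjusted p = 0.0108 for both). Its next neighbours were b6j at 0.5 mg/kg and untreated ob, which differed by 3.61 (exact permutation adjusted p = 0.00812). Mt2 also did not differ beyond its spread between b6j at 2 mg/kg and ob at 0.5 mg/kg (0.21, exact permutation adjusted p = 0.657). No neighbouring groups of Mt3 differed beyond their spread, with exact permutation adjusted p-values from 0.376 to 0.981. With 6 libraries against 6, the smallest p that 924 splits allow is 0.00216.

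The ratio of Mt2 to Mt1 reads in a library, which does not depend on scaling between libraries, was compared between groups; it is not a ratio of transcript levels. In ob kidneys the mean log2 ratio was -7.80 ± 0.61, -7.49 ± 0.21 and -7.21 ± 0.27 at 0, 0.5 and 2 mg/kg (SD, n = 6), and in b6j kidneys -7.99 ± 0.57, -7.58 ± 0.06 and -7.39 ± 0.19. The largest difference was 0.60 between b6j kidneys at 2 mg/kg and untreated b6j kidneys (exact two-sided permutation p = 0.0303, 0.166 adjusted over 9 comparisons). None of the 9 comparisons passed after adjustment by the exact permutation test, 1 was under an unadjusted p of 0.05, and the reads in the bases shared with Gm45774 are missing from every Mt2 count. Gm45774 itself was counted with 0 to 2 reads per library in untreated ob kidneys and 0 to 3 in untreated b6j kidneys. It had 40 to 60 and 31 to 86 reads in ob kidneys at 0.5 and 2 mg/kg, and 15 to 53 and 23 to 60 in b6j kidneys, with no overlap between treated and untreated libraries. Unlike Mt2, it did not pass between doses in ob kidneys (log2 change -0.04 ± 0.32, adjusted p = 0.936) or in b6j kidneys (0.28 ± 0.33, adjusted p = 0.626); the difference between the genes in this step was not tested.

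The relation of Mt1 and Mt2 among libraries was taken within each group, and differences in it between groups were not tested. Over the 6 libraries of a group, Pearson's r of log2 CPM was 0.94 in ob at 0.5 mg/kg (exact permutation p = 0.00278, adjusted over 6 groups 0.0167), 0.98 in b6j at 0.5 mg/kg (exact permutation p = 0.0139, adjusted 0.0278) and 0.92 in untreated b6j (exact permutation p = 0.0111, adjusted 0.0278). Spearman's rho in these groups was 0.94, 0.77 and 0.83, with exact permutation p-values of 0.0167, 0.103 and 0.0583 that did not pass after adjustment (0.1, 0.154 and 0.117). Without the 2 libraries farthest from the Mt1 median, r in these groups was 0.98, 0.93 and 0.75. In the other groups r was 0.82 in b6j at 2 mg/kg (rho 0.83, exact permutation adjusted p of r 0.0687), 0.61 in untreated ob (rho 0.43, adjusted 0.242) and -0.09 in ob at 2 mg/kg (rho -0.09, adjusted 0.847). Without the 2 farthest libraries r in those groups was 0.37, 0.99 and -0.39. The groups form separate clusters and no pooled test was made.

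Across the 36 libraries, the genes whose log2 CPM was most like that of Mt1 were Mt2 (r = 0.992), Psap (0.96), Hmox1 (0.936), Ces1g (0.933), Nyx (0.923), Gm2814 (0.922), Gstm3 (0.918) and Creg1 (0.914). These were the 8 highest Pearson correlations among tested genes averaging 1 CPM or more, and they describe libraries that share dose groups. Psap encodes the precursor of lysosomal sphingolipid activators and Hmox1 the heme-degrading enzyme heme oxygenase 1. Psap measured 1502, 3925 and 4172 CPM on average in ob kidneys at 0, 0.5 and 2 mg/kg and 1928, 2811 and 3893 CPM in b6j kidneys. For Mt2 the closest gene was Mt1, followed by Psap (0.942) and Hmox1 (0.936). Mt3 had an r of 0.278 with Mt1 and 0.292 with Mt2, and its closest gene was the long noncoding RNA gene Pvt1 (0.678).

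The fourth gene of the family, Mt4, known from stratified epithelium, did not pass the expression filter. It is at chr8:94137197-94139031, before Mt3. It had 0 reads in all 6 libraries of untreated ob, untreated b6j and b6j at 0.5 mg/kg, and 2 reads in 1 library of ob at 0.5 mg/kg. At 2 mg/kg it had 26 reads over 4 of 6 ob libraries (mean 0.13 CPM) and 31 reads over 5 of 6 b6j libraries (mean 0.163 CPM). These levels are near those of 3 reads, and no fold change is given.

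Genes around the cluster were described next, all those annotated within 250 kb of Mt1 to Mt3. Of 21 such genes other than the members, 16 were tested. In each of the 4 comparisons of a dose with untreated kidneys, 2 of the 16 rose, Gm45774 and Gm39228. Of all tested genes, 3.55% and 20.4% rose in ob kidneys at 0.5 and 2 mg/kg, and 0.297% and 12.3% in b6j kidneys. As stated above, reads that lie in Mt2 introns were counted for Gm45774. Gm39228 (ENSMUSG00000110524) is a noncoding RNA gene at chr8:94183289-94184969 on the plus strand, downstream of Mt1. The annotated end of Mt1, on the same strand, is base 94180327. Whether the reads of Gm39228 come from a transcript of its own was not tested. Gm39228 was low in every group. It averaged 0.00483, 0.527 and 1.09 CPM in ob kidneys at 0, 0.5 and 2 mg/kg and 0.0215, 0.183 and 0.594 CPM in b6j kidneys. Its adjusted p against untreated kidneys was 9.43e-08 and 2.96e-10 in ob at 0.5 and 2 mg/kg, and 0.0191 and 2.16e-07 in b6j. The mean untreated levels of both noncoding genes are under the floor of 3 reads per library. The protein coding genes next to the cluster on either side, Bbs2 and Nup93, averaged 27.7 to 34.5 CPM and 17.3 to 20 CPM over the 6 groups and were not called in these 4 comparisons. Bbs2 was near the threshold in ob kidneys at 2 mg/kg (-0.28, edgeR adjusted p = 0.0506, and 0.0995 without ob at 2 mg/kg replicate 5). Between the doses in ob kidneys it was called lower at 2 mg/kg (-0.32, adjusted p = 0.0301). At 0.5 mg/kg none of the 16 fell by edgeR in either genotype, with 4 in ob and 0 in b6j kidneys lower at an unadjusted p below 0.05. Without ob at 2 mg/kg replicate 5, 4 of the 16 fell at 0.5 mg/kg in ob kidneys, Ogfod1 (-0.28, edgeR adjusted p = 0.00407), Slc12a3 (-0.26, adjusted p = 0.0106), Gm15889 (-0.56, adjusted p = 0.0439) and Herpud1 (-0.25, adjusted p = 0.0372), and 0 in b6j kidneys. Of the 16, 5 fell at 2 mg/kg in ob kidneys (C78859, Slc12a3, Gm15889, Gm15890 and Herpud1) and 3 in b6j kidneys (Gm15889, Gm15890 and Herpud1), all on the far side of Nup93. Without that library the counts at 2 mg/kg were 5 in ob kidneys and 4 in b6j kidneys. Of tested genes, 18% fell in ob and 11.4% in b6j kidneys at that dose, and 0.737% and 0.0275% at 0.5 mg/kg, with all libraries. Without that library, genes called in either direction over the whole table also increased. At 0.5 mg/kg they went from 779 to 1780 in ob and from 59 to 157 in b6j kidneys. At 2 mg/kg they went from 6976 to 6989 in ob and from 4305 to 6388 in b6j kidneys.

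**Figure D4:**
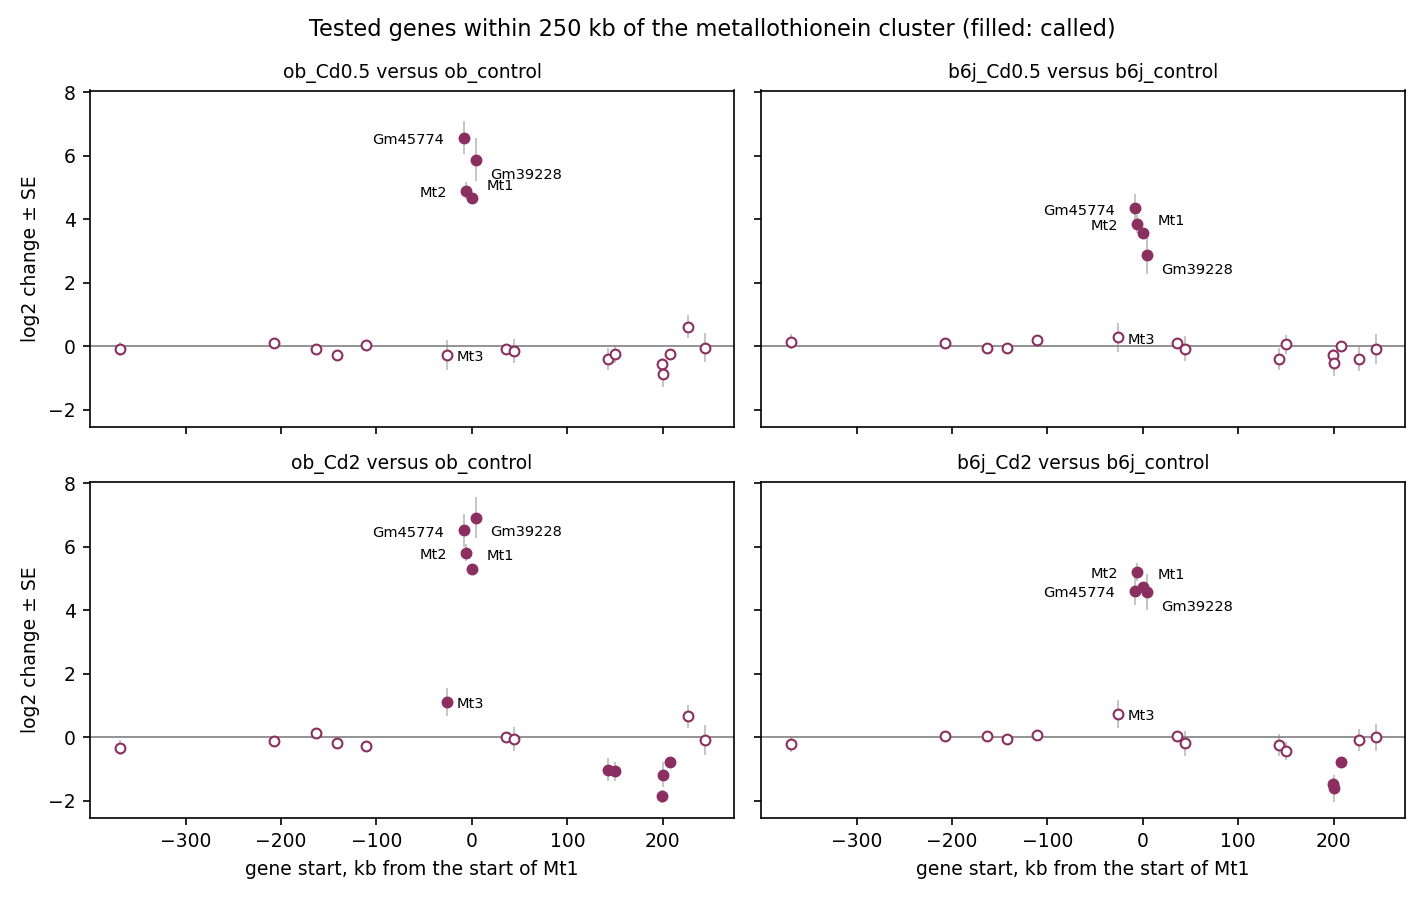
Log2 change with SE of the tested genes within 250 kb of the cluster, against the distance of the gene start from that of Mt1 in kilobases, for each dose against untreated kidneys; filled points had an adjusted p below 0.05. The genes that rose lie at the centre, no other neighbour passed the threshold at 0.5 mg/kg, and the heights of Gm45774 and Gm39228 rest on few untreated reads, so they depend on the fit's prior count.

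Other genes of metal response and cadmium handling, a list of 13 of which 12 were tested, were counted next. In ob kidneys 3 of the 12 rose and 1 fell at 0.5 mg/kg, with a median log2 change of 0.06, and 4 rose and 2 fell at 2 mg/kg, with a median of -0.07. In b6j kidneys 1 rose and 1 fell at 0.5 mg/kg (median 0.08), and 3 rose and 1 fell at 2 mg/kg (median 0.07). Over all tested genes the medians in the same comparisons were -0.01, 0.011, 0.005 and 0.017. Of all tested genes, 3.55% rose and 0.737% fell in ob kidneys at 0.5 mg/kg and 20.4% rose and 18% fell at 2 mg/kg, while in b6j kidneys 0.297% rose and 0.0275% fell at 0.5 mg/kg and 12.3% rose and 11.4% fell at 2 mg/kg. Without ob at 2 mg/kg replicate 5 the counts were 4 and 1 in ob kidneys at 0.5 mg/kg, 4 and 2 at 2 mg/kg, 1 and 1 in b6j kidneys at 0.5 mg/kg and 3 and 2 at 2 mg/kg. At 0.5 mg/kg the whole-table counts in either direction were then 1780 (ob) and 157 (b6j), in place of 779 and 59. At 2 mg/kg they were 6989 and 6388, in place of 6976 and 4305. Mtf1, which encodes the transcription factor that drives Mt1 and Mt2, was called in none of the 4, and averaged 23.2, 20.4 and 21.2 CPM in ob kidneys at 0, 0.5 and 2 mg/kg and 21.7, 21.7 and 22.5 CPM in b6j kidneys. Slc30a1, which encodes a zinc exporter and is a classic MTF1 target, rose at 2 mg/kg by 0.96 ± 0.20 in ob (adjusted p = 0.000312) and by 1.01 ± 0.20 in b6j kidneys (adjusted p = 0.000263). At 0.5 mg/kg its log2 change was 0.51 ± 0.21 in ob (adjusted p = 0.194) and 0.65 ± 0.20 in b6j kidneys (adjusted p = 0.282).

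Among zinc importers, Slc39a10 fell in all 4 comparisons. Its log2 change was -1.03 ± 0.13 and -0.64 ± 0.13 in ob kidneys at 0.5 and 2 mg/kg (adjusted p = 5.56e-07 and 0.000145), and -0.77 ± 0.13 and -0.85 ± 0.13 in b6j kidneys (adjusted p = 0.000633 and 4.64e-06). In each of these comparisons all 6 treated libraries lay below every untreated one. Slc39a8, a zinc and manganese importer that also carries cadmium, fell by 1.48 on the log2 scale in ob kidneys at 2 mg/kg (23.7 ± 7.36 CPM treated, 65.9 ± 9.52 CPM untreated, SD, n = 6 each), with an edgeR adjusted p of 5.48e-08. In b6j kidneys at 2 mg/kg its log2 change was 0.08 ± 0.17 (adjusted p = 0.783), and the difference between genotypes was -1.56 ± 0.25 (adjusted p = 0.00043). Slc39a14 and Slc11a2, which encode other metal importers, and Lrp2 and Cubn, which encode the endocytic receptors megalin and cubilin, were called in none of the 4 comparisons. Without ob at 2 mg/kg replicate 5, Slc11a2 passed in ob kidneys at 0.5 mg/kg (0.31, adjusted p = 0.00288) and Slc39a14 in b6j kidneys at 2 mg/kg (-0.31, adjusted p = 0.0204). Cubn was near the threshold in ob kidneys at 2 mg/kg over control (-0.39, edgeR adjusted p = 0.0502). It was lower there than in ob kidneys at 0.5 mg/kg (-0.49, adjusted p = 0.0197) and b6j kidneys at 2 mg/kg (-0.57, adjusted p = 0.0133). Slc11a2 was lower in ob than in b6j kidneys untreated (-0.49, adjusted p = 0.00372) and at 2 mg/kg (-0.53, adjusted p = 0.00216). Slc39a14 was lower untreated (-0.51, adjusted p = 0.00741).

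Hmox1 rose in all 4, by 4.62 ± 0.19 and 5.74 ± 0.20 in ob kidneys at 0.5 and 2 mg/kg and by 1.35 ± 0.16 and 4.84 ± 0.19 in b6j kidneys, with the highest adjusted p at 2.36e-06. It averaged 26.6, 655 and 1424 CPM in ob kidneys at 0, 0.5 and 2 mg/kg and 45.7, 117 and 1311 CPM in b6j kidneys. Its response at 0.5 mg/kg was larger in ob kidneys by 3.27 ± 0.23 (adjusted p = 1.43e-11), beside 1.10 for Mt1 in the same test. The Hmox1 response at 2 mg/kg was also larger in ob kidneys, by 0.90 ± 0.23 (adjusted p = 0.0289), and its level in untreated ob kidneys was lower than in untreated b6j kidneys (log2 change -0.78 ± 0.16, adjusted p = 0.00073). After 2 mg/kg Hmox1 did not pass the test of level between ob and b6j kidneys (log2 change 0.12 ± 0.16, adjusted p = 0.666), where Mt1 was higher in ob kidneys by 0.53. Gclc, which encodes the catalytic subunit for glutathione synthesis, rose in ob kidneys at 0.5 mg/kg by 0.74 ± 0.18 (adjusted p = 0.0132), and at 2 mg/kg by 2.17 ± 0.19 in ob (adjusted p = 5.78e-11) and 1.68 ± 0.19 in b6j kidneys (adjusted p = 2.33e-08). In b6j kidneys at 0.5 mg/kg its change of -0.02 ± 0.18 was not called. The difference in Gclc response at that dose did not pass (0.76 ± 0.26, adjusted p = 0.308). Untreated ob and b6j kidneys differed in Gclc by -0.51 ± 0.18 (adjusted p = 0.0557, and 0.0297 without ob at 2 mg/kg replicate 5). Ndrg1, a stress- and metal-responsive gene, rose in ob kidneys at both doses, by 0.48 ± 0.14 (adjusted p = 0.0361) and 0.76 ± 0.14 (adjusted p = 3.53e-05). In b6j kidneys its changes of 0.19 ± 0.14 and 0.32 ± 0.14 at 0.5 and 2 mg/kg were not called. The differences in Ndrg1 response between genotypes did not pass either (0.29 ± 0.19, adjusted p = 0.797, and 0.45 ± 0.19, adjusted p = 0.221). Its untreated level was lower in ob than in b6j kidneys (-0.47 ± 0.14, adjusted p = 0.0148).

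**Figure D5:**
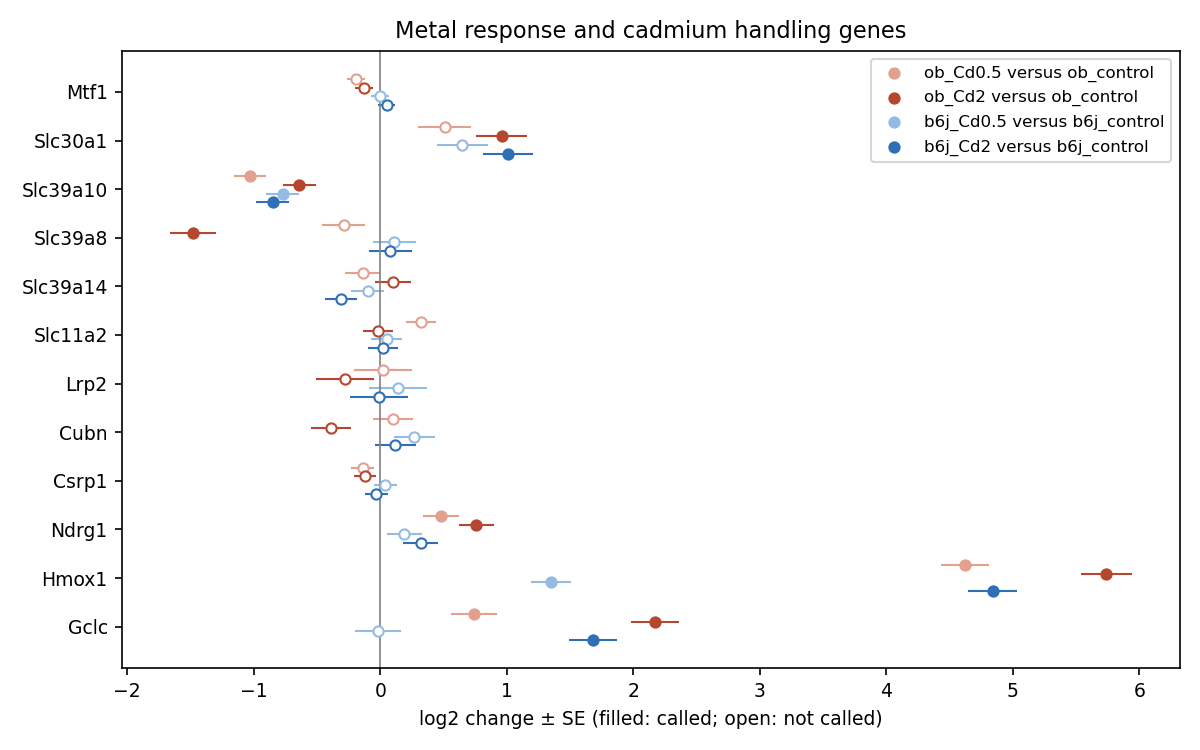
Log2 change with SE of the 12 tested genes of metal response and cadmium handling, each dose against untreated kidneys of the same genotype; filled points had an adjusted p below 0.05. Hmox1 stands far to the right in 3 of the 4 comparisons, Slc39a10 is left of 0 in all 4, and Mtf1 is near 0.

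Genes of the other known inputs to Mt1 and Mt2 were counted as well. The shares of all tested genes that rose or fell, given above for the metal list, apply to these counts too: 20.4% and 18% in ob and 12.3% and 11.4% in b6j kidneys at 2 mg/kg, and 3.55% and 0.737% in ob and 0.297% and 0.0275% in b6j kidneys at 0.5 mg/kg. Of 8 genes of the glucocorticoid receptor and its targets, 0 rose and 1 fell in ob kidneys at 0.5 mg/kg and none were called in b6j kidneys at that dose, nor at an unadjusted p below 0.05. At 2 mg/kg 1 rose and 3 fell in ob kidneys, and 0 rose and 5 fell in b6j kidneys (Tsc22d3, Zbtb16, Dusp1, Fkbp5 and Klf9). Tsc22d3, a standard glucocorticoid target, had log2 changes of -0.65 ± 0.19 in ob (adjusted p = 0.00548) and -0.93 ± 0.19 in b6j kidneys (adjusted p = 0.000302) at 2 mg/kg. The list's median log2 change was -0.20 and -0.15 in ob kidneys at 0.5 and 2 mg/kg, and -0.08 and -0.85 in b6j kidneys. Of 8 genes of STAT3 and the acute phase, 0 were called by edgeR at 0.5 mg/kg in either genotype (2 in ob and 1 in b6j kidneys at an unadjusted p below 0.05), while 7 rose in ob and 4 in b6j kidneys at 2 mg/kg. Stat3 itself rose at 2 mg/kg by 0.85 ± 0.11 in ob (adjusted p = 9.88e-08) and 0.71 ± 0.11 in b6j kidneys (adjusted p = 4.45e-06). The median of that list was 0.30 and 2.89 in ob kidneys at 0.5 and 2 mg/kg, and 0.24 and 1.5 in b6j kidneys. Without ob at 2 mg/kg replicate 5 the ob counts at 2 mg/kg were 1 higher and 5 lower for the first list and 7 higher for the second, the b6j counts 6 lower and 5 higher, and at 0.5 mg/kg 2 of the second list rose in ob and 1 in b6j kidneys. The list medians in ob kidneys at 2 mg/kg were then -0.51 for the first list and 1.88 for the second. The whole-table counts without that library, given above for the metal list, apply here as well.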

How the data were processed

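Kidney RNA of 36 samples was sequenced. Per the labels' protocols, RNA from snap-frozen kidney with an integrity number above 6.5 was made into Illumina libraries. Per the submitters' processing notes, bcl2fastq, Trimmomatic, FastQC and STAR were used with GRCm38. The deposited files hold integer counts of reads in genes, made by featureCounts 1.4.6-p2 with Ensembl 96 and default settings per the file headers. Strand was ignored, reads in exons of several genes were dropped, and 74.1 to 78.7% of counts from 1 to 9 were even, as when both mates of a fragment are counted. The 36 columns of a joined table were not used. All 55536 genes matched GENCODE M21.

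CPM and tests were computed from these counts with edgeR 4.0.16 in R 4.3.3: default filter (18180 genes), TMM scaling (factors 0.892 to 1.122), 1 quasi-likelihood model with a mean for each group (common dispersion 0.0489), Benjamini-Hochberg adjustment and a threshold of 0.05 in each of 12 comparisons. The SE is the log2 change over the root of F. The test was tried on simulated counts first. Alternatives used DESeq2 1.42.0 and limma 3.58.1, and halved counts were added after seeing the data. No batch is named in the labels. Exact tests enumerated all splits or pairings with numpy 2.4.6 (pseudocounts of 0.5 reads and 0.1 CPM), and scipy 1.17.1 gave ranks and adjusted p-values. Genes were named by rule: the family, called genes of 3 lists, genes within 250 kb and the 8 closest in pattern. Members and lists were chosen with earlier results of these data known.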

Additional observations from a re-analysis of the deposited data

Results flagged for a closer look

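Among the 6 ob libraries at 0.5 mg/kg, replicate 4 was far below the others in Mt1, at 2026 CPM with the next at 2874 CPM, a gap of 0.719 of the group's range. Among the 6 ob libraries at 2 mg/kg, replicate 5 was far above the others, at 5414 CPM with the next at 4451 CPM, a gap of 0.655 of the range. The same library had the lowest proximal tubule and highest injury markers of its group, and the part of these in its Mt1 level was not tested. In both cases the gap passed Dixon's bound of 0.625 for 6 values. Of 24 groups examined, chance alone flags about 1 in 20.

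The Mt1 response to 0.5 mg/kg differed between ob and b6j kidneys by 1.10 on the log2 scale in the test of that difference itself.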

How the results depend on the processing

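Mt1 and Mt2 rose at each dose over control in both genotypes under all 9 other settings and without any single library. Of 108 values under other settings, 104 of Mt1, 108 of Mt2 and 99 of Mt3 kept their direction and side of the threshold, and of 432 values with a library left out, 429, 430 and 403 did. The Mt1 difference between untreated genotypes was 0.08 with library size alone. With only the compared groups fitted, the calls lost were Mt3 in ob at 2 mg/kg over control (1.12) and over 0.5 mg/kg (1.4), and Mt1 in ob over b6j at 2 mg/kg (0.53). With limma-voom these Mt3 values were 0.71 and 1.20, both not called, Mt3 turned direction between untreated genotypes (0.03), between genotypes at 2 mg/kg (-0.07) and in the interaction at 2 mg/kg (-0.10), and the Mt1 interaction at 2 mg/kg passed (0.57), as with DESeq2 (0.61). The Mt3 call in ob at 2 mg/kg over control was also lost with library size alone (1.10) and no filter (1.09). With library size alone the order of untreated b6j over untreated ob turned for Mt1 (-0.07) and Mt3 (-0.10). In these cases the cause was not tested.

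With a library left out, the untreated genotypes differed by -0.16 to 0.01 in Mt1, -0.16 to 0.33 in Mt2 and -0.32 to 0.18 in Mt3. Mt3 ranged from 0.79 to 1.29 in ob at 2 mg/kg over control, 1.07 to 1.70 over 0.5 mg/kg and -0.09 to 0.41 between genotypes at 2 mg/kg, and the Mt1 interaction at 2 mg/kg from 0.53 to 0.70. In the order of levels, untreated ob over untreated b6j ranged from -0.08 to 0.27 in Mt2, and in Mt3 untreated b6j over untreated ob from -0.20 to 0.20 and ob over b6j at 2 mg/kg from -0.16 to 0.28. The Mt2 to Mt1 ratio of b6j at 2 over 0.5 mg/kg ranged from 0.15 to 0.24, and passed the exact permutation test, adjusted over the comparisons, only without b6j at 2 mg/kg replicate 4.

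Genes called over the whole table moved more. Between untreated genotypes the main count was 2822, with 5007 for the compared groups alone, 5629 with limma-voom and 2257 to 4781 with a library left out. In ob at 0.5 mg/kg over control these 4 values were 779, 1937, 2337 and 578 to 1780. In b6j at 0.5 mg/kg they were 59, 120, 232 and 42 to 157, with 106 by DESeq2. Between genotypes at 0.5 mg/kg they were 1753, 3044, 3929 and 1386 to 3522. For the interaction at 0.5 mg/kg they were 70, 321, 805 and 44 to 254, with 148 by DESeq2. For the interaction at 2 mg/kg they were 376, 194, 1075 and 216 to 758, with 748 by DESeq2, 590 with library size alone and 239 with no filter. For the interaction of the step they were 51, 26, 102 and 32 to 82, with 101 by DESeq2. The compared groups alone gave 3880 in place of 6976 in ob at 2 mg/kg over control, 1889 in place of 5406 in ob at 2 over 0.5 mg/kg and 461 in place of 2987 between genotypes at 2 mg/kg. In b6j, limma-voom gave 6949 in place of 4305 at 2 mg/kg over control and 5176 in place of 3143 over 0.5 mg/kg, and left-out libraries gave 2378 to 5267.

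Replicate numbers gave little sign of pairing between libraries: of 90 same-numbered pairs 11 correlated above 0.1 (range -0.27 to 0.322), and 8 of 36 libraries correlated best with their own number. With replicate number as a block, no call of the 3 members changed, and 2692 in place of 2822 genes were called between untreated genotypes and 6767 in place of 6976 in ob at 2 mg/kg over control.

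Depth limits Mt3 and untreated Mt2, at 2 to 65 and 6 to 33 reads per library. Counting without strand limits Mt2 to changes between groups.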
